A study of Mus musculus with 73 samples.

Results

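DNA methylation was compared between 3 mouse liver samples labelled FoxA triple null and 3 control samples, 7 days after induction in adult mice. The measurement was reduced representation bisulfite sequencing (RRBS), in which a restriction digest selects CpG-rich fragments and bisulfite treatment then separates methylated from unmethylated cytosines. Of 817277 tiles of 100 bp in the deposited table, the 480615 with a value in all 6 of these libraries were kept. The null group is labelled FoxA triple null after Cre induction. The control group carries FoxA1L/L and FoxA2L;L, as the labels spell the alleles that Cre can remove, and FoxA3-/-, and was sampled after GFP induction. Both groups lacked Foxa3, so the groups differ in Foxa1 and Foxa2, and in having received Cre or GFP. The mice of both groups were 9 weeks old, the tissue is labelled liver, and the DNA came from hepatocytes. The RRBS labels name neither the carrier of Cre nor the cell type in which it acts. How completely Cre removed Foxa1 and Foxa2 was not checked. Nothing in the labels says that the numbered samples of a group came from separate litters or days. The exact permutation p-values thus measure the spread between the samples compared. The p-values of single tiles rest on a spread shared over all RRBS groups of the series, unless another spread is named.

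Foxa1, Foxa2 and Foxa3 encode forkhead transcription factors that bind their motifs in closed chromatin and are known as pioneer factors of liver development. In hepatocytes they occupy enhancers and promoters of liver genes together with other liver factors. Methylation of CpG sites is usually high across the genome and low at active enhancers and CpG-rich promoters, and bound sites of transcription factors are commonly within the low class. The loss of methylation can follow from replication without maintenance or from oxidation by TET enzymes, and its gain from the DNMT methyltransferases.

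Tiles were sorted by place. A FoxA site was one of the 33302 sites of 400 bp in the deposited whole-genome bisulfite sequencing (WGBS) table, which merge into 25640 separate regions. Of the tested tiles, 6906 overlapped a site by at least 1 bp, in 3237 regions. Another 37312 tiles were flank tiles, up to 2000 bp from the nearest site, and 436397 were distant tiles. Levels are given in percent methylation and differences in percentage points, always as null minus control. The table gives no read coverage, so how many reads stand behind a level is unknown and no interval of a single level was computed. Null libraries had values at 595723, 622668 and 577582 tiles and control libraries at 568498, 617163 and 564121, so the number of measured tiles did not separate the groups. Any 2 of the 6 libraries correlated across tiles with r between 0.976 and 0.981. Cell type markers could not be checked, because no gene annotation of the mm9 build was used.

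At FoxA sites the triple nulls had less methylation than the controls. The null libraries averaged 10.02%, 9.36% and 10.1% over the 6906 site tiles, and the control libraries 11.11%, 11.02% and 11.05%. Every null was below every control. The means were 9.82 ± 0.401 (SD, n = 3) against 11.06 ± 0.0430 (SD, n = 3), a difference of -1.24 points, or 11.2% of the control level. The two-sided exact permutation test gave p = 0.1, which is the smallest value that 3 libraries against 3 can give, and 0.2 after Benjamini-Hochberg adjustment over 6 tests of this kind. Null 2 was the lowest library, and without it the difference was -1.01 points.

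Mean levels of flank and distant tiles did not separate the groups. Flank tiles averaged 34.3%, 33.9% and 34.1% in the nulls and 34.3%, 34.0% and 34.3% in the controls, and the groups overlapped. The difference there was -0.13 points (exact permutation p = 0.4, 0.6 adjusted). That mean joins low flank tiles that were lower in the nulls and high ones that were higher, as given by level below. With each library's median flank level in place of its mean, every null was below every control and the difference was -1.48 points (exact permutation p = 0.1), where the same setting gave -0.52 at site tiles. Distant tiles averaged 62.3%, 61.8% and 61.8% in the nulls and 62.0%, 61.2% and 61.8% in the controls. Their difference was 0.28 points in the other direction (exact permutation p = 0.5, 0.6 adjusted), and it was 0.06 without control 2, the lowest control. Site tiles are mostly of low level and distant tiles mostly of high level. The places were therefore also compared within broad classes of level, weighted by the number of site tiles in each. On that scale the site level minus the distant level was -0.44, -0.77 and -0.16 points in the nulls and 0.49, 0.66 and 0.66 points in the controls. The difference at matched level was -1.06 points, with every null below every control (exact permutation p = 0.1, 0.2 adjusted). The match is coarse. In the class under 10%, which held 5598 site tiles, the controls averaged 2.77% at site tiles and 1.84% at distant tiles. How much of the matched difference comes from such unequal levels was not tested.

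**Figure D1:**
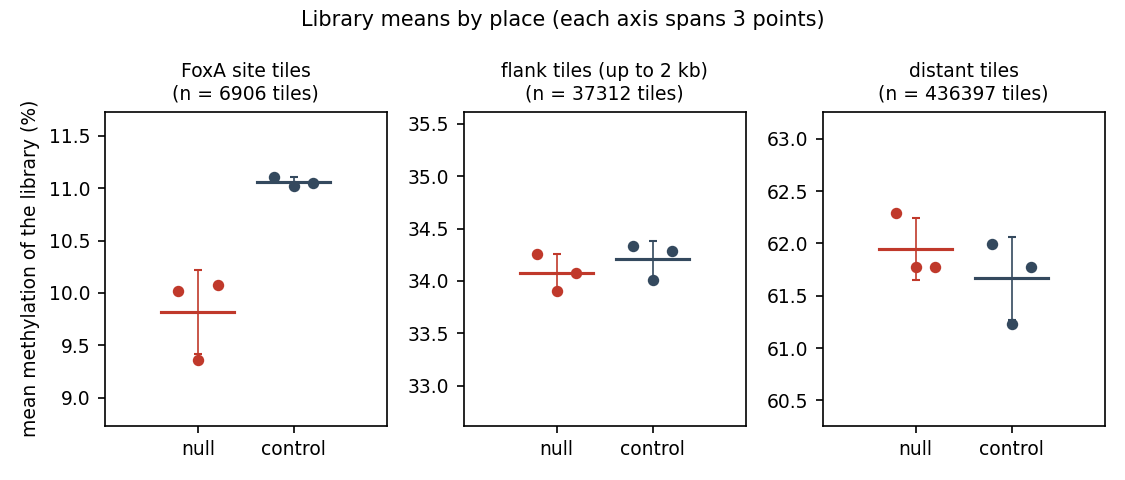
Mean methylation of each library in percent over FoxA site, flank and distant tiles; points are libraries, horizontal lines group means and bars SD (n = 3), and each axis spans 3 points without starting at 0. At site tiles the nulls lie between 9.36 and 10.1 and the controls between 11.02 and 11.11, while the groups overlap in the other panels.

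The shift at FoxA sites was spread over many tiles rather than carried by a few. In the nulls 57.9% of site tiles were lower and 32.8% higher than in the controls, against 50.2% and 44.4% of flank tiles and 47.2% and 51.1% of distant tiles. Taken tile by tile, the median of the differences was -0.23 points at sites, -0.0060 at flanks and 0.05 at distant tiles, beside 0.01 over all tested tiles. Tiles with every null below every control numbered 640, or 9.27% of the site tiles, where 4.55% of all tested tiles had that order. The opposite order was found at 136 site tiles, or 1.97%, where 5.11% of all tested tiles had it. Among flank tiles the same shares were 5.27% and 3.84%, and among distant tiles 4.41% and 5.26%. A difference of more than 5 points was downward in 14.0% of site tiles and upward in 3.91%. Over all tested tiles these shares were 10.1% downward and 12.1% upward. Averaged by region, 2076 of 3237 FoxA regions were lower in the nulls and 1046 higher, with a median difference of -0.35 points and a median of 2 tiles per region.

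The difference shrank with distance from a FoxA site. It was -0.54 points for tiles 1 to 200 bp from a site edge, where each null was below each control, and -0.27 beyond 200 and up to 500 bp. Beyond 500 and up to 1000 bp it was -0.06, and from there to 2000 bp it was 0.03. Further out, it was 0.23 up to 10000 bp and 0.29 at more than 10000 bp. Levels rise over the same steps, from 11.1% in the controls at sites to 62.7% at more than 10000 bp, so the steps also differ in level.

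To hold level roughly equal, tiles at 5 to 25% in the day 13 controls were taken, which are other libraries and play no part in the day 7 contrast. In this class the gradient was steeper. Tiles centred within 50 bp of a site centre averaged 5.36 ± 0.985% in the nulls and 9.14 ± 0.166% in the controls (SD, n = 3 each), a difference of -3.78 points or 41.4% of the control level. At 51 to 100 bp the difference was -3.65, at 101 to 200 bp -3.29 and from there to 300 bp -2.37. It stayed between -2.21 and -2.00 from 301 to 2000 bp. Further out it was -1.46 beyond 2000 and up to 5000 bp, -1.16 from there to 10000 bp and -0.53 beyond 10000 bp. Every null lay below every control in each step up to 10000 bp, and the groups overlapped beyond it. The steps were not tested against each other.

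**Figure D2:**
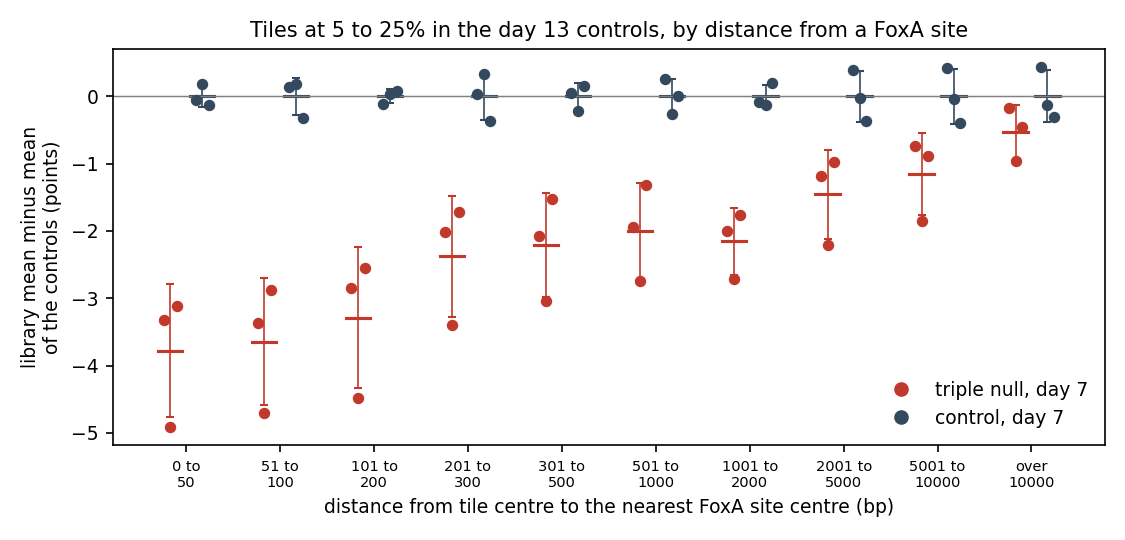
Library mean minus the mean of the 3 day 7 controls, in percentage points, for tiles at 5 to 25% in the day 13 controls, by distance in bp between tile centre and nearest FoxA site centre; points are libraries, lines group means and bars SD (n = 3). The null mean goes from -3.78 within 50 bp to -0.53 beyond 10000 bp.

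By place, this intermediate class held 1525 site tiles, with means of 6.84%, 5.37% and 7.19% in the nulls and 9.76%, 9.90% and 9.73% in the controls. That is a difference of -3.33 points, and between -3.69 and -2.78 with any 1 library left out. The 3005 flank tiles of the class differed by -2.13 points, and again all nulls were below all controls. The 23271 distant tiles of the class differed by -0.66 points, with overlapping groups, and by -0.42 without null 2. Tiles with each null below each control made up 19.7% of the class at sites, against 13.9% at flanks and 7.67% at distant tiles. Over all tiles of the class that share was 9.00%. The opposite order was found at 1.44% of site, 2.30% of flank and 4.17% of distant tiles, beside 3.82% of all tiles of the class. Part of the lower level took the form of tiles listed at 0. In this class 19.9%, 30.7% and 21.5% of site tiles were at 0 in the nulls, against 17.0%, 9.90% and 17.6% in the controls. At distant tiles of the class the shares at 0 were 7.04%, 8.47% and 8.78% in the nulls and 7.27%, 5.75% and 8.94% in the controls, which overlap. Over all site tiles the shares at 0 overlapped, at 37.6%, 41.3% and 40.5% in the nulls and 38.9%, 30.0% and 39.3% in the controls. Without coverage, a tile at 0 in few reads and a tile at 0 in many look alike, and the part of coverage in these shares was not tested.

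The size of the difference depended on the level of the tile. Binned by the day 13 controls, site tiles at 1 to 2.5% averaged 1.33%, 1.01% and 1.32% in the day 7 nulls and 2.20%, 1.95% and 2.15% in the day 7 controls. Those at 2.5 to 5% averaged 3.28%, 1.96% and 3.36% against 5.21%, 5.25% and 5.11%. Those at 5 to 10% averaged 4.53%, 2.93% and 4.48% against 7.62%, 7.77% and 7.30%, a difference of -3.58 points or 47.4% of the control level. Site tiles at 10 to 25% differed by -3.02 points, with all nulls below all controls. From 25% upward the groups overlapped in every bin, with differences of -0.70 at 25 to 50%, -0.50 at 50 to 75%, -0.32 at 75 to 90% and 0.29 at 90 to 100%. Binned instead by the mean of the 6 libraries, site tiles at 25 to 50% had every null below every control (-1.02 points) and the 112 site tiles at 90% or more had every null above every control (0.87 points), so the order of the groups above 25% varied with the binning. Distant tiles in the same bins differed by -0.10 at 1 to 2.5%, -0.26 at 2.5 to 5%, -0.57 at 5 to 10% and -0.73 at 10 to 25%. Low distant tiles thus also averaged lower in the nulls, to a smaller extent, with the groups overlapping in each of these bins except 5 to 10%. At 0 to 1%, close to the floor, the 55881 distant tiles differed by -0.08 points and the site tiles by -0.22. Every null was below every control in both. Binned by the mean of the 6 libraries, distant tiles under 10% also had every null below every control (-0.18 points). Highly methylated distant tiles averaged 0.70 points higher at 75 to 90% and 0.45 higher at 90 to 100%, with overlapping groups. Flank tiles had every null below every control in each bin up to 50%, with -2.36 points at 5 to 10% and -0.80 at 25 to 50%. The groups overlapped for flank tiles at 50 to 75%. At 75 to 90% and 90 to 100% every null was above every control for flank tiles (0.90 and 0.49 points). Whether what moves low tiles outside FoxA sites also moves those at the sites was not tested.

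A second ranking, by the WGBS level of each FoxA region in 2 control livers of that assay, gave the same picture with no use of RRBS. RRBS control levels followed those WGBS levels across the 6906 site tiles with r = 0.767, against 0.129 with tiles moved by 2000 bp, where tiles are not independent replicates. The 1928 site tiles in regions at 5 to 20% averaged 9.22%, 7.86% and 9.47% in the nulls and 11.7%, 11.5% and 11.4% in the controls. The difference was -2.69 points, 23.3% of the control level. The 664 tiles in regions at 20 to 40% averaged 29.2%, 27.5% and 28.4% against 30.3%, 30.3% and 30.3%, a difference of -1.95 points. In regions at 1 to 5% the 1775 tiles averaged 1.63%, 1.35% and 1.76% against 2.36%, 2.45% and 2.45%, and the difference of -0.84 points was 34.6% of the control level. Every null was below every control in these 3 classes. The 2045 tiles of regions under 1% were at 0.557%, 0.572% and 0.545% against 0.653%, 0.625% and 0.673%, close to the floor of the scale. The groups overlapped in regions at 40 to 60% (-1.22 points, 292 tiles) and at 60% or more (-0.27 points, 202 tiles).

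**Figure D3:**
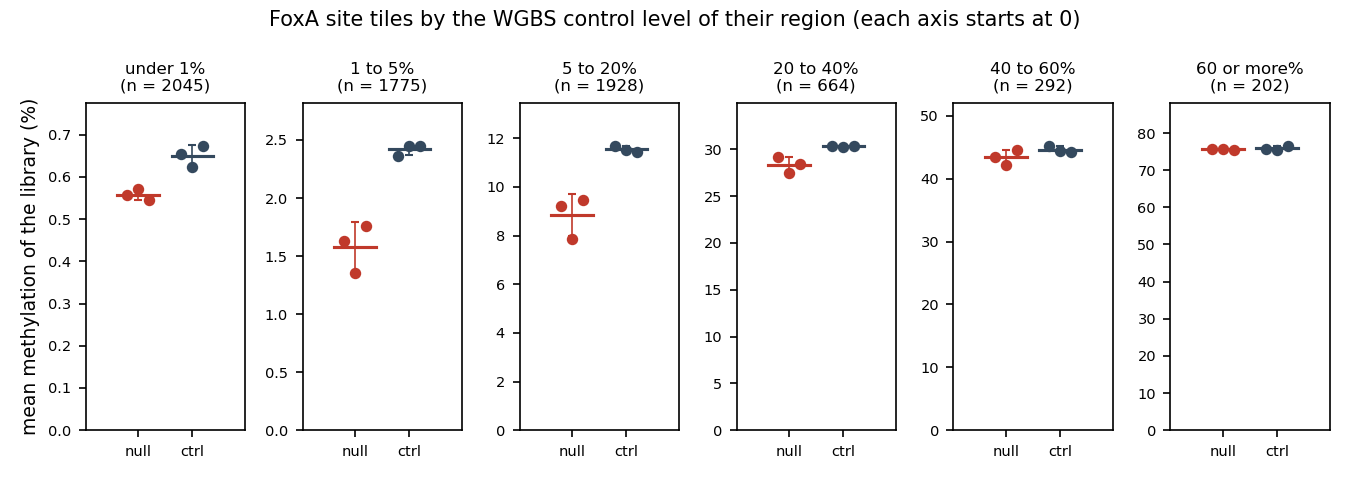
Mean methylation of each library in percent over FoxA site tiles, in 6 classes of the WGBS control level of their region; points are libraries, lines group means and bars SD (n = 3), and each axis starts at 0. Nulls lie below all controls in the 4 classes up to 40%, with the widest gap in points at 5 to 20% (-2.69).

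FoxA regions with several overlapping sites, showed larger differences than regions of 1 site. The 5408 tiles of regions with 1 site differed by -1.02 points, the 1073 tiles of regions with 2 sites by -1.95, and the 425 tiles of regions with 3 or more by -2.30. In regions with 3 or more sites the nulls averaged 9.49%, 8.40% and 9.84% and the controls 11.6%, 11.4% and 11.6%. Within the class at 5 to 25% in the day 13 controls, the same 3 groups of regions differed by -3.25, -3.28 and -4.01 points, so regions of 1 and of 2 sites were nearly the same there. Tiles wholly inside a site differed by -1.56 points (4352 tiles) and tiles across a site edge by -0.71 (2554 tiles). The null libraries were below all controls in each of these groups, and the groups were not tested against each other.

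The authors' deposited list of hyper-methylated sites held 225 of the site tiles. They averaged 33.3%, 32.5% and 34.8% in the day 7 nulls and 34.2%, 33.8% and 33.8% in the controls, with overlapping groups and a difference of -0.39 points in the mean, beside a median tile difference of -0.88. The 6681 tiles off that list, which are of lower level, had a median tile difference of -0.23 and averaged 9.02 ± 0.383% against 10.29 ± 0.0377% (SD, n = 3 each). Regions bound by HNF6, a homeodomain factor of hepatocytes, in all 3 control lists numbered 804 and held 27 site tiles. Those averaged 5.67%, 1.81% and 3.05% in the nulls and 4.76%, 7.33% and 8.85% in the controls, and the groups overlapped.

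The site difference was not tied to one chromosome. Site tiles were lower in the nulls on 19 of 19 chromosomes, and on 18 of them each null was below each control, the exception being chromosome 16. The differences ran from -0.79 points on chromosome 6 to -1.81 on chromosome 15, where the nulls averaged 8.92%, 7.87% and 8.59% and the controls 10.1%, 10.4% and 10.3%. Distant tiles were higher in the nulls on the same 19 chromosomes, by 0.19 to 0.36 points, although their groups overlapped over all chromosomes together. The chromosomes were read from the same libraries, so they are not replicates, and a shift of whole libraries would recur on each of them. Chromosome 5, which held most of the single tiles described next, had a site difference of -1.14 points, and the site difference without that chromosome was -1.25.

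**Figure D4:**
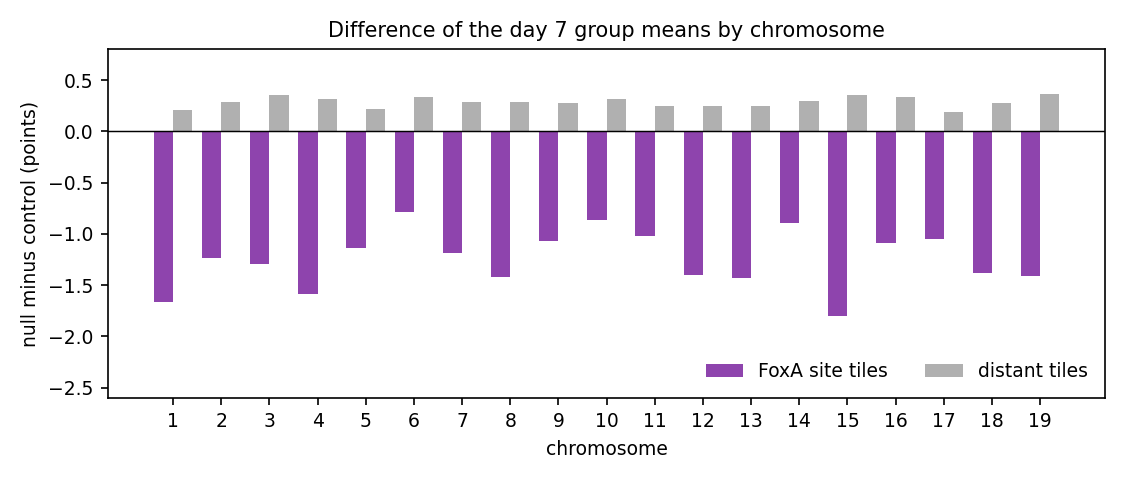
Difference of the day 7 group means, null minus control in percentage points, for FoxA site tiles and distant tiles on each of 19 chromosomes; bars start at 0. Site tiles run from -1.81 to -0.79 and distant tiles from 0.19 to 0.36.

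Tile by tile, the fit found few differences, and none of them at a FoxA site. With limma's moderated test at a Benjamini-Hochberg adjusted p of 0.05 over all tested tiles, 6 tiles rose in the nulls (0.00125% of those tested) and 14 fell (0.00291%). Of the site tiles, 0 passed in either direction, with 340 at an unadjusted p under 0.05. That is 4.92% of site tiles, beside 4.1% of all tested tiles. When the spread was estimated from the 6 day 7 libraries alone, limma called 0 tiles in each direction, with 27705 at an unadjusted p under 0.05. The spread of the adult induction and hepatectomy groups, without mice of other ages and genotypes, gave 5 tiles higher and 16 lower in limma. With it 23815 tiles were at an unadjusted p under 0.05, against 19703 with all RRBS groups. Without any difference, a share of about 0.05 of the 480615 tested tiles would pass that unadjusted threshold. These are therefore not counts of changed tiles. Of the 20 tiles called with all RRBS groups, 1 lay in a flank and 19 were distant, at a median of 71598 bp from the nearest site. Leaving out 1 library at a time kept 6 of the 20 past the threshold in every case, and without control 2 or control 3 the calls grew to 15 or 21 higher and 28 or 23 lower. Without null 2 they were 3 higher and 11 lower.

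Chromosome 5 held 12 of the 20, between positions 103089501 and 139180300 (mm9), although 7.40% of tested tiles lie on that chromosome. The tile at chr5:106349001-106349100 was listed at 0 in all 3 nulls and at 71.2%, 93.3% and 71.4% in the controls (-78.6 ± 5.66 points, SE, limma adjusted p = 4.99e-06). The tile at chr5:110351601-110351700 was likewise at 0 in the nulls and at 62.7%, 91.8% and 60.8% in the controls (limma adjusted p = 0.0456). The tile at chr5:103089501-103089600 was at 0 in the nulls and at 40.5%, 73.8% and 64.7% in the controls (limma adjusted p = 0.0481). In these tiles the nulls were uniform and control 2 was above the other controls.

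The pair of adjoining tiles from chr5:139180101 to 139180300 showed partial levels. The first was at 25.1%, 26.3% and 26.3% in the nulls and 68.8%, 80.9% and 70.5% in the controls (-47.5 points, limma adjusted p = 2.40e-05). The next was at 22.9%, 21.6% and 29.1% in the nulls and 58.1%, 75.5% and 66.3% in the controls (-42.1 points, limma adjusted p = 0.0105). The other measured tile within 500 bp of both also differed in the same direction, by -29.9 points, without passing the threshold. The groups were well apart in both tiles.

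Other tiles of chromosome 5 had nulls at partial levels too. The tile at chr5:105879201-105879300 was at 25.8%, 32.9% and 24% in the nulls and 60%, 85.2% and 61.02% in the controls (-41.2 points). That at chr5:106591601-106591700 was at 50%, 46.8% and 47.8% in the nulls and 78.1%, 95.5% and 87.0% in the controls (-38.7 points). That at chr5:114683001-114683100 was at 43.3%, 41.5% and 40.5% in the nulls and 66.2%, 79.9% and 68.8% in the controls (-29.9 points). In each of them the 3 nulls lay close together and below every control.

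Next to the tile with the largest difference, chr5:106349101-106349200 was at 47.9%, 47.5% and 48.1% in the nulls and 72.5%, 86.8% and 72.5% in the controls (-29.4 points). At chr5:110185801-110185900 the nulls were at 55.0%, 49.1% and 48.8% and the controls at 79.2%, 84.3% and 77.5% (-29.4 points). One tile of the chromosome rose: at chr5:105000501-105000600 the nulls were at 51.3%, 41% and 50.6% and the controls at 22.7%, 2.13% and 27.5% (30.2 points). In 11 of 11 tiles that fell on chromosome 5, control 2 was the highest control.

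Measured neighbours within 500 bp of these chromosome 5 tiles were mixed. The adjoining pairs at chr5:106349001 and chr5:139180101 differed in the same direction, as given above. The tile at chr5:114683001-114683100 had 4 such neighbours, with differences between -0.23 and 3.37 points, and that at chr5:110185801-110185900 had 3, between -1.37 and 1.32. The single neighbours of chr5:103089501-103089600, chr5:105879201-105879300, chr5:110351601-110351700 and chr5:106591601-106591700 differed by 0.24, 3.05, 4.37 and 8.22 points. The tile that rose, chr5:105000501-105000600, had 1 neighbour, also higher by 28.3 points. Outside chromosome 5, the tile at chr8:74556501-74556600 was at 51.7%, 53.0% and 22.2% in the nulls and 90.7%, 88.6% and 93.3% in the controls (-48.6 points, limma adjusted p = 0.0178), and its only neighbour differed by -41.8 points. Both tiles differed in the same direction.

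At day 13 the chromosome 5 tiles did not show these differences. The 11 chromosome 5 tiles that fell were between 66.3% and 99.04% in all measured libraries of the day 13 and hepatectomy experiments, nulls and controls alike, so that the day 7 nulls, and at many of these tiles day 7 controls 1 and 3, lay below those libraries. At chr5:106349001-106349100 the day 13 nulls were at 96.9% and 92.7% and the day 13 controls at 96% and 88.2%. At chr8:74556501-74556600 the day 13 nulls were at 76.2% and 88.9% and the day 13 controls at 90% and 90.5%. Across the 20 tiles the day 13 difference was at most 7.70 points in size, and its sign matched that of day 7 in 11 of them. An unadjusted limma p under 0.05 at day 13 was found at 3 of the 20, with the day 7 direction at chr14:101149501-101149600 (7.14 points at day 13, 7.36 at day 7) and the opposite one at chr19:46593101-46593200 (-5.37) and chr13:9685901-9686000 (-6.67), each with values in only part of the day 13 libraries. The interaction of genotype and day passed the threshold in limma at 4 of 411725 tiles (0.000972%), of which 2 were among the 20, namely chr5:106349001-106349100 and chr5:139180101-139180200. With the spread from the adult induction and hepatectomy groups the count was 24. What sets the chromosome 5 tiles apart in this 1 experiment was not tested, nor whether the DNA sequence at these tiles was the same in all mice.

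**Figure D5:**
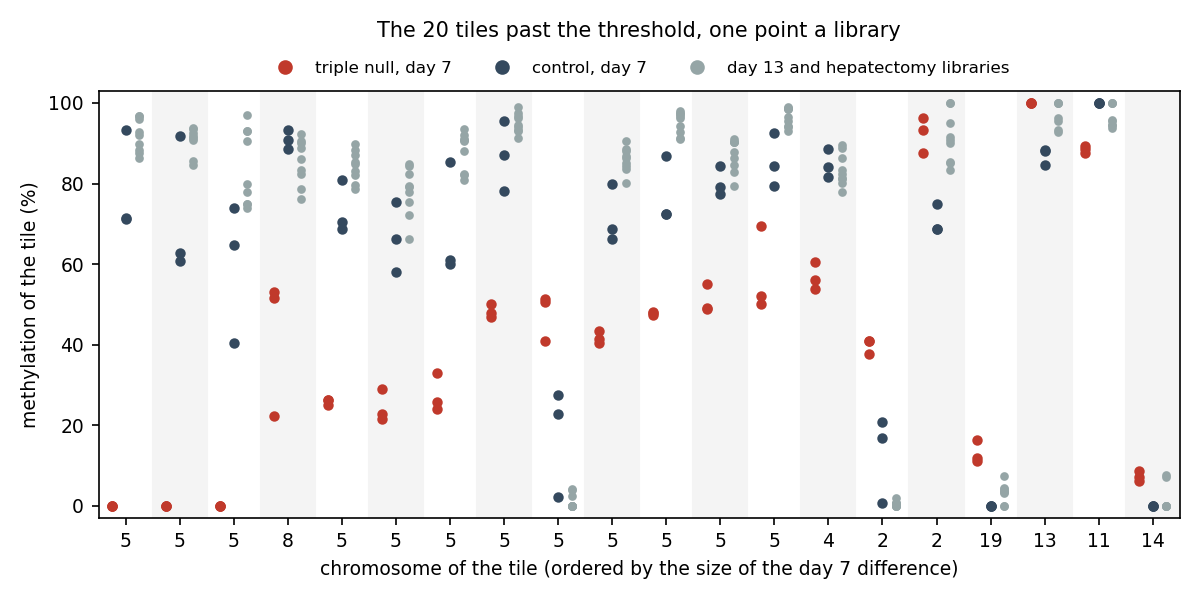
Methylation in percent of each of the 20 tiles past the threshold, ordered by the size of the day 7 difference and marked by chromosome; each point is 1 library. At the 11 chromosome 5 tiles that fell, the day 13 and hepatectomy libraries lie between 66.3 and 99.04, above the day 7 nulls.

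The remaining 8 of the 20 included the only flank tile, chr4:107752001-107752100, which lies 391 bp from a FoxA site. It was at 60.5%, 56.0% and 53.8% in the nulls and 81.7%, 88.6% and 84% in the controls (-28.0 points, limma adjusted p = 0.0160), and at 86.4% and 88.7% in the day 13 nulls. The last tile lower on chromosome 5, chr5:104666501-104666600, was at 69.5%, 52.2% and 50% in the nulls and 79.4%, 92.5% and 84.4% in the controls. At chr2:155969801-155969900 the nulls were at 40.8%, 37.6% and 40.8% and the controls at 20.9%, 0.702% and 16.8%, while the other 21 RRBS libraries did not exceed 3.01%. Here too control 2 was the control closest to those libraries. The other 5 differed by 7.36 to 21.4 points in size, and 4 of them were at 0 or at 100% in every library of one group.

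Among FoxA site tiles, those with the largest moderated statistic and groups that did not overlap are given as a description, since none passed the threshold. The tile at chr11:100675901-100676000, in a region of 3 sites, was at 0.735%, 0.923% and 0% in the nulls and 8.81%, 9.67% and 19.6% in the controls. Its day 13 nulls were at 2.18% and 2.44% and its day 13 controls at 4.27% and 2.31%. The tile at chr15:78240201-78240300 was at 0%, 0% and 5.48% in the nulls and 40%, 18.1% and 28.9% in the controls. The other 21 RRBS libraries reached at most 10.3% at the first tile and 18.2% at the second, so that 1 control of day 7 lay above all of them at the first and 2 at the second.

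Another was chr9:61154201-61154300, at 1.63%, 3.09% and 3.48% in the nulls and 13.8%, 12.4% and 17.5% in the controls, with 2.69% and 2.20% in the day 13 nulls and 4.53% and 7.04% in the day 13 controls. The tile at chr11:106134301-106134400 was at 1.19%, 0% and 0.330% in the nulls and 6.56%, 2.36% and 6.34% in the controls. At the latter tile the other 21 libraries had a median of 0.690% and a maximum of 2.54%, so that controls 1 and 3 of day 7 lay above them and the nulls within their range. These tiles were picked for a large statistic, and their differences exceed the mean over site tiles.

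The site tiles picked in the same way in the opposite direction were of high level, except for the last one given here. At chr4:41657501-41657600 the nulls were at 94.7%, 87.5% and 95.8% and the controls at 75%, 81.2% and 81.2%. At chr13:113699901-113700000 they were at 85.7%, 90.5% and 94.4% against 61.1%, 72.2% and 58.3%, and at chr16:37870401-37870500 at 81.0%, 92.9% and 81.8% against 64.7%, 75% and 58.6%. The tile at chr11:98644301-98644400 was at 2.94%, 6% and 7.14% in the nulls and listed at 0 in all controls.

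Flank tiles chosen the same way were led by the called tile on chromosome 4. Next came chr2:164280701-164280800, 1511 bp from a site, at 4.35%, 0% and 2.27% in the nulls and 15.3%, 10.5% and 19.2% in the controls (-12.8 points, limma adjusted p = 0.0534). It was also lower in the day 13 nulls, at 1.89% and 2.83% against 5.81% and 9.21% in the day 13 controls. The tile at chr17:56348901-56349000 was at 85%, 84.4% and 79.4% in the nulls and 100%, 96.4% and 100% in the controls. Upward, chr4:59346801-59346900 and chr18:78060401-78060500 were at 100% in all 3 nulls and at 83.3% to 87.5% and 76% to 88% in the controls. The tile at chr6:113842201-113842300 was at 93.2%, 92.5% and 93.8% in the nulls and 72.7%, 77.3% and 64.7% in the controls.

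The day 7 difference at FoxA sites was next set beside that at day 13, measured in 2 nulls and 2 controls of the same genotypes at 12 weeks of age. Over the 6315 site tiles measured in all 10 libraries, the day 7 nulls averaged 8.30%, 7.71% and 8.33% and the day 7 controls 9.38%, 9.27% and 9.34%. The day 13 nulls averaged between 8.26% and 8.76% and the day 13 controls between 9.28% and 9.64%. Again each null was below each control (exact permutation p = 0.333, the smallest that 2 libraries against 2 can give). The differences were -1.22 points at day 7 and -0.95 at day 13. They differed from each other by -0.27 points (exact permutation within each day, p = 0.783, and 0.783 adjusted over 6 tests), and with so few libraries this does not show that they are equal. In regions at 5 to 20% in WGBS controls, the day 13 nulls averaged 9.24% and 8.26% and the day 13 controls 11.4% and 10.01%, a difference of -1.96 points. Flank tiles measured in all 10 libraries differed by -0.42 points at day 13 and -0.16 at day 7. Distant tiles differed by -0.15 at day 13 and 0.25 at day 7. The groups overlapped at both places on both days.

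Livers labelled FoxA double null in adulthood and sampled after partial hepatectomy were set beside control livers labelled as injected with AAV GFP before partial hepatectomy. Mice of both groups were 12 weeks old. The 2 groups overlapped at FoxA sites. Over 6592 site tiles measured in both experiments, the 3 hepatectomy nulls lay between 10.5% and 11.01% and the 2 hepatectomy controls at 10.1% and 11.1%, a difference of 0.19 points. The day 7 difference on those tiles was -1.20 points. The difference between the experiments was -1.38 points (exact permutation within each experiment, p = 0.04, and 0.2 adjusted over 6 tests). These livers differ from the day 7 ones in genotype, surgery and age, which cannot be told apart here.

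The WGBS libraries of adult nulls, 1 month after a Cre virus per the labels, held 2819 of the FoxA regions with tested tiles. Both WGBS groups are labelled Foxa1L/L;2L/L with no Foxa3 allele named, so they differ from the day 7 samples in that gene as well as in assay and time. Over these regions the WGBS adult nulls averaged 11.4% and 11.8% and the WGBS controls 12.1% and 13.1%. In the 854 regions at 5 to 25% in the day 7 RRBS controls, the WGBS adult nulls averaged 10.7% and 11.6% and the WGBS controls 12.1% and 14.1%. Both adult nulls were below both controls in each set. The WGBS differences were -0.95 and -1.96 points, beside RRBS day 7 differences of -1.37 and -3.66 points in the same regions. Choosing regions by the day 7 RRBS controls also favours a lower RRBS null level there. Across the 2819 regions the RRBS and WGBS differences correlated with r = 0.202, as a description, since regions share libraries and are not independent.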

How the data were processed

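The authors deposited methylation in RRBS as a fraction for every 100 bp tile and library, turned here into percent by a factor of 100. Their WGBS values are a fraction for every FoxA site, each 400 bp long. The tools named are Trim Galore 0.3.3 and BSMAP 2.74, and the build is mm9, per the submitters' processing notes. No coverage minimum and no rule for summing CpG sites into tiles is stated in the labels. A further 2 columns of per-sample values were not used. HNF6 peak lists of controls give fold enrichment, per the file headers; peaks entered by position only.

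Single tiles were tested on percent values with limma 3.58.1 (R 4.3.3), using a variance trend, group means of all RRBS groups sharing 1 spread, and Benjamini-Hochberg adjustment at 0.05. The age series of controls and that of developmental nulls each entered as 1 group. Their mice differ in age, so change with age is part of that spread. In simulated data, changes were placed only in tiles near the middle of the scale. There the fit called no unchanged tile but recovered only a minority of the changed ones, even at large differences. A low count of called tiles thus does not show that few tiles changed. Recovery at tiles of low level, as most site tiles are, was not tested. Library means over a place were compared by two-sided exact permutation in Python 3.11.15. Level classes for matching had edges at 10, 25, 50, 75 and 90%. The tiles and lists were chosen with earlier results of these data known. Named tiles were the 12 with the largest difference among those past the threshold, and, as a description, the 4 site tiles and 3 flank tiles in each direction with the largest moderated statistic and groups that did not overlap; the other tiles past the threshold were named after their values were seen. The class at 5 to 25% in the day 13 controls, the distance steps and the sorting by number of sites were chosen after seeing the data. Positions are mm9, and since the gene tables at hand are of another build, no gene names or sequences are given.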

Additional observations from a re-analysis of the deposited data

Results flagged for a closer look

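The difference at FoxA site tiles was lower by 1.38 points at day 7 than after hepatectomy (-1.38, exact permutation within each experiment p = 0.04, and 0.2 after adjustment over 6 tests), with every day 7 null below every day 7 control and overlapping groups after hepatectomy. An interaction of genotype and day passed the threshold of limma's moderated test at 4 tiles, all distant from FoxA sites, and at 24 with the spread from the adult induction and hepatectomy groups. At 2 of them, both on chromosome 5, the day 7 groups differed and the day 13 groups did not. At chr10:119664201-119664300 all day 7 libraries and the day 13 nulls were listed at 0, and the day 13 controls were at 5% and 4.17%. At chr19:28750201-28750300 the day 7 nulls were at 94.3%, 93.5% and 85.3% with all day 7 controls at 100%, while the day 13 nulls were at 100% and the day 13 controls at 75% and 80%.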

How the results depend on the processing

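Depth per level is unknown, 3 libraries against 3 cannot give an exact p below 0.1, and only CpG-rich fragments were measured. The site difference kept its sign in all 14 alternatives, from -2.74 (levels of 5 to 95%) to -0.52 (median over tiles), and the difference at matched level in all 13, from -2.24 to -0.90. The replicate block, counted in both, leaves these values unchanged by construction. The alternatives reuse the same libraries, so they are not independent of each other. Leaving out 1 library gave -1.37 to -1.01 at sites, -0.23 to -0.04 at flanks and 0.06 to 0.44 at distant tiles. The flank difference reversed to 0.0362 with flanks up to 5000 bp and was -1.48 as a median over tiles. The day 7 minus day 13 difference at sites was -0.26 on tiles measured in every RRBS library. Tiles wholly inside a site and the results without chromosome 5 were added after seeing the data. With the spread from the 6 day 7 libraries only, limma called 0 tiles higher and 0 lower. Tiles higher numbered 3 at a difference of at least 20 points, 3 among tiles measured in every RRBS library, and 3 to 21 with 1 library left out, where tiles lower numbered 10 to 28. Tiles whose change differs between days numbered 24 with the spread from the adult induction and hepatectomy groups. A replicate block fitted in limma to the 6 day 7 libraries also gave 0 tiles in each direction (25409 of 480615 at an unadjusted p under 0.05). Those libraries gave 0 without the block too, so the effect of the block alone was not tested. With samples paired by number, the exact sign-flip p at sites was 0.25, the smallest it allows. Same-numbered nulls and controls did not visibly deviate together over tiles (r of 0.011, -0.0076 and 0.00071). The labels do not say whether the numbers pair the samples, and these correlations of single tiles cannot decide it.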
